A study of Mus musculus with 12 samples.

Results

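Glutathione peroxidases remove hydrogen peroxide and organic hydroperoxides, and the family in the mouse comprises Gpx1 to Gpx8. All 8 were found by their symbols among the 43346 genes of the count table, and 5 of them (Gpx1, Gpx3, Gpx4, Gpx7 and Gpx8) had enough counts to pass the filter on low counts. The other 3 (Gpx2, Gpx5 and Gpx6) were close to 0 and are described by their counts. The family was put forward with the comparison of sham and AVF-CKD in view, so its values in that comparison are given as a description without a test. The SE and 95% intervals of its members likewise describe the fit and are not read as tests against 0.

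RNA was taken from veins of mice 7 days after surgery and sequenced as 12 libraries. The 6 sham libraries came from jugular vein. The 6 AVF-CKD libraries came from the venous limb of the AVF, in a model that the series calls the AVF-CKD murine model. The labels do not spell out AVF or CKD, which in this field stand for arteriovenous fistula and chronic kidney disease, and they name no strain, sex or age. No group had the fistula alone or the kidney model alone, so the surgery, the vessel sampled and the kidney model cannot be told apart here. Whether each library is a separate mouse is not stated, and p-values below measure the spread between these libraries. Because whole vessel was sequenced, fewer cells of a type and less RNA per cell cannot be told apart.

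The classical members reduce a peroxide with a selenocysteine at the active site and are returned to the reduced state by glutathione. Selenocysteine is encoded by TGA, otherwise a stop codon, and its insertion needs a stem-loop in the messenger RNA. Gpx1 works in the cytosol and mitochondria, Gpx3 is secreted and is the main form in plasma, and Gpx4 reduces lipid hydroperoxides within membranes and so restrains ferroptosis, an iron-dependent form of cell death. Gpx2 belongs to the gut epithelium, Gpx5 to the epididymis and Gpx6 to the olfactory epithelium. Gpx7 and Gpx8 reside in the endoplasmic reticulum, where they use peroxide to oxidise protein disulphide isomerases and so take part in the folding of secreted proteins.

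The codon of the peroxidatic residue separates the family and is shown with 15 coding bases on each side, 5′ to 3′ on the gene's strand, from the GENCODE M21 transcripts of GRCm38. Capitals mark the codon of the peroxidatic residue.
Gpx1, chr9:108339436-108339468, plus strand, exon 1 of 2: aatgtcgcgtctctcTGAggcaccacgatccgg
Gpx2, chr12:76795241-76795273, minus strand, exon 1 of 2: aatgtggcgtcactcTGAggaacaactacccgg
Gpx3, chr11:54907241-54907273, plus strand, exon 2 of 5: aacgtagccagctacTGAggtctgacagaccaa
Gpx4, chr10:80054722-80054754, plus strand, exon 3 of 7: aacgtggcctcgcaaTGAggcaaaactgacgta
Gpx5, chr13:21291321-21291353, minus strand, exon 2 of 5: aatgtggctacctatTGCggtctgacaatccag
Gpx6, chr13:21313762-21313794, plus strand, exon 2 of 5: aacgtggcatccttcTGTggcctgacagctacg
Gpx7, chr4:108403415-108403447, minus strand, exon 2 of 3: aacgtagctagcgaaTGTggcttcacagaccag
Gpx8, chr13:113045646-113045678, minus strand, exon 2 of 3: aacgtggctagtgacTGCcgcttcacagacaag
The codon was TGA in 4 members, Gpx1 to Gpx4, and GENCODE annotates a selenocysteine at each of them. It was TGT or TGC, a cysteine codon, in the other 4 members, Gpx5 to Gpx8.

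The coding sequences of Gpx7 and Gpx8 also end in a signal that returns proteins to the endoplasmic reticulum. The last 8 codons are shown in GRCm38, 5′ to 3′ on the gene's strand, with the 4 codons of the signal in capitals.
Gpx7, chr4:108400837-108400860, minus strand: atccttcggaaaCGAGAAGACTTG
Gpx8, chr13:113043139-113043162, minus strand: attcttaaaaagAAAGAGGATCTA
The coding bases of Gpx7 and Gpx8 were 65.0% identical where they aligned, against 60.0% to 73.5% over all pairs of members. No exonic base of a member was overlapped by another annotated model. Gpx4 had 2 near copies among the annotated transcripts, Gpx4-ps2 with 99.6% identity over 509 bases and AC122253.3 with 95.1% over 510 bases. Neither has an entry in the count table, so the counts of Gpx4 are uncertain as far as reads shared with these copies were assigned to it or dropped. Gpx2 had 1 near copy, Gpx2-ps1, which held 1 count in all.

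The libraries held 43445591 to 60142016 counts in sham and 38653830 to 52003341 counts in AVF-CKD. General endothelial markers, which do not tell vein from other vessels, were present, with all 7, led by Pecam1, detected and summed to 1157 to 1599 CPM (counts scaled to library size) in sham and 959 to 1531 CPM in AVF-CKD. The libraries also carried other tissues. Summed skeletal muscle markers, led by Acta1, ran from 436 to 11367 CPM in sham and from 779 to 11029 CPM in AVF-CKD, and summed fat markers, led by Cfd, from 978 to 4309 CPM and from 773 to 1577 CPM. Across all 18965 genes tested, the quasi-likelihood test of edgeR called 0 genes (0%) at an adjusted p below 0.05, with a lowest adjusted p of 0.246. At an unadjusted p below 0.05 it counted 998 genes higher in AVF-CKD (5.26%) and 774 lower (4.08%). DESeq2 gave an adjusted p to 18210 genes and called 102 of them, 64 higher (0.351%) and 38 lower (0.209%). Limma voom called 0, with 2124 at an unadjusted p below 0.05.

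Levels of different members were compared on the deposited RPKM scale, which divides reads by library size and transcript length. Gpx3 and Gpx1 were the most abundant members, with medians over the 12 libraries of 294 RPKM (range 228 to 386) and 275 RPKM (range 208 to 414). These neighbours in the order were not separated: Gpx3 was above Gpx1 in 6 of the 12 libraries, 3 sham and 3 AVF-CKD. Gpx8 followed with a median of 101.1 RPKM (88.5 to 144) and Gpx4 with 100.9 RPKM (70.9 to 122). Gpx8 was above Gpx4 in all 6 sham libraries and in 3 of the 6 AVF-CKD libraries. Gpx7 was the lowest of the 5 abundant members with 50.3 RPKM (39.3 to 71.3), below Gpx4 in 12 of 12 libraries. Gpx5, Gpx6 and Gpx2 had medians of 0.0152, 0.00715 and 0 RPKM. The summed RPKM of the family was 869 ± 91.5 in sham and 811 ± 97.6 in AVF-CKD (SD, n = 6 each), a difference smaller than the SD of either group.

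**Figure D1:**
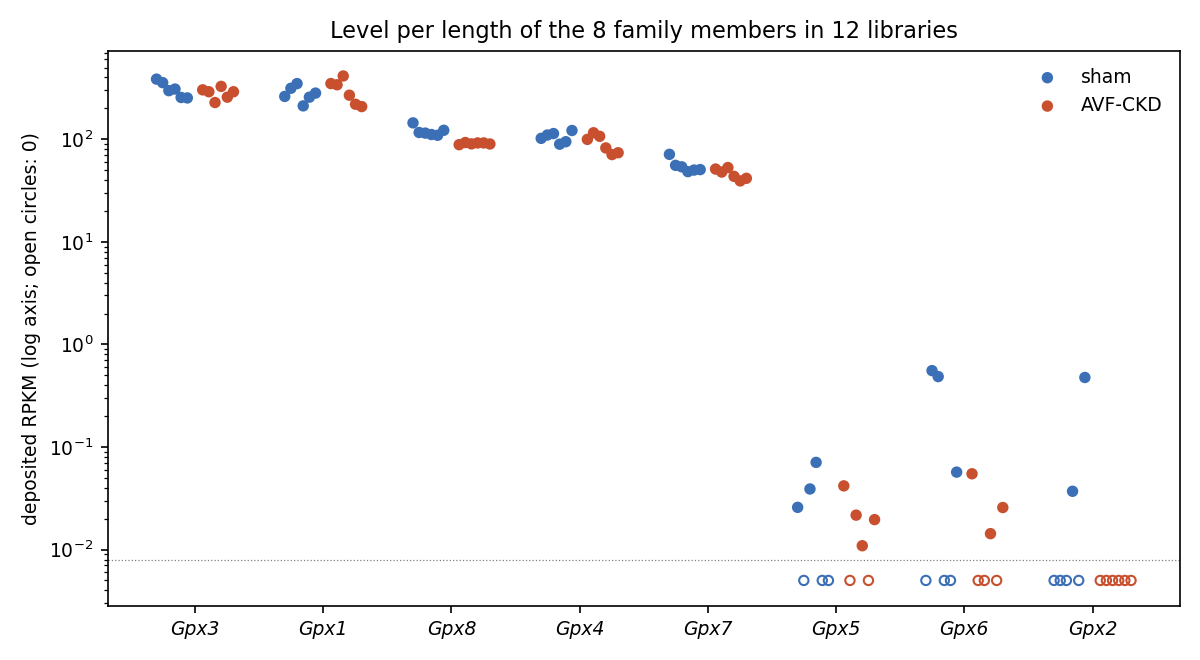
Deposited RPKM (log axis) of the 8 glutathione peroxidases in each of the 12 libraries, ordered by median, with blue points for sham, red points for AVF-CKD and open circles for values of 0. Gpx3 and Gpx1 overlap at 208 to 414 RPKM, Gpx8 and Gpx4 share a median near 101 RPKM, Gpx7 lies lower, and Gpx5, Gpx6 and Gpx2 lie far below the others.

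Gpx8 (ENSMUSG00000021760, chr13, 113042763 to 113046388), the membrane-anchored member of the endoplasmic reticulum, was lower in every AVF-CKD library than in every sham library. In sham the lowest, median and highest values were 126, 139.6 and 171 CPM, with sham 5 lowest and sham 1 highest. In AVF-CKD they were 101, 109 and 113 CPM, with AVF-CKD 1 lowest and AVF-CKD 5 highest. The groups did not overlap. The means were 142 ± 15.4 CPM for sham and 108 ± 3.93 CPM for AVF-CKD (SD, n = 6 each), a fold of 0.761 and a log2 fold change of -0.39 ± 0.07 (SE; 95% interval -0.55 to -0.24). Of the genes tested, 42 (0.221%) had all AVF-CKD libraries below all sham libraries and 79 (0.417%) had them above. Among the 5 members that were tested, Gpx8 alone had groups that did not overlap. Since the family was chosen on this contrast, nothing is read from that count.

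The spread of Gpx8 between libraries was wider in sham than in AVF-CKD. Its coefficient of variation was 10.8% in sham, 4.90% in sham without sham 1, and 3.64% in AVF-CKD, so most of the difference rested on that library. The SD of log2 CPM over the AVF-CKD libraries, 0.05, lay at percentile 1.65 among the genes tested, and that over the sham libraries, 0.15, at percentile 28.3. The sham value was 0.07 without sham 1. These percentiles rank Gpx8 among genes of every level, and low counts widen the SD of log2 CPM. No ranking among genes of like level was made. Sham 1 lay apart from the other sham libraries at 171 CPM, the next highest being 142 CPM. Without sham 1 the log2 fold change was -0.33.

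Gpx7 (ENSMUSG00000028597, chr4, 108400390 to 108406961), the soluble counterpart of Gpx8, had a lower mean in AVF-CKD with groups that overlapped. Its lowest, median and highest values were 73.1, 78.1 and 107 CPM in sham and 61.0, 68.6 and 79.8 CPM in AVF-CKD. AVF-CKD 2, 4, 5 and 6 were below every sham library, and sham 1, 2 and 3 were above every AVF-CKD library. The means were 82.7 ± 13.0 and 69.3 ± 7.12 CPM (SD, n = 6 each), a log2 fold change of -0.25 ± 0.10 (SE; 95% interval -0.48 to -0.03). It was -0.17 without sham 1, the library highest for Gpx7 as for Gpx8.

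Together Gpx7 and Gpx8 summed to 175 ± 20.9 RPKM in sham, with a range of 159 to 216 RPKM. In AVF-CKD the sum was 137 ± 4.97 RPKM, with a range of 131 to 143 RPKM (SD, n = 6 each). These ranges did not overlap, and neither did those of Gpx8 alone, while those of Gpx7 alone did. As a share of the family's RPKM the pair made up 20.2% ± 1.70 in sham and 17.0% ± 1.57 in AVF-CKD, where the ranges of 18.1% to 22.4% and 15.7% to 19.3% did overlap. The ratio of Gpx8 to Gpx7 per length was 2.19 ± 0.14 in sham and 2.00 ± 0.26 in AVF-CKD, a difference within the SD of AVF-CKD.

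**Figure D2:**
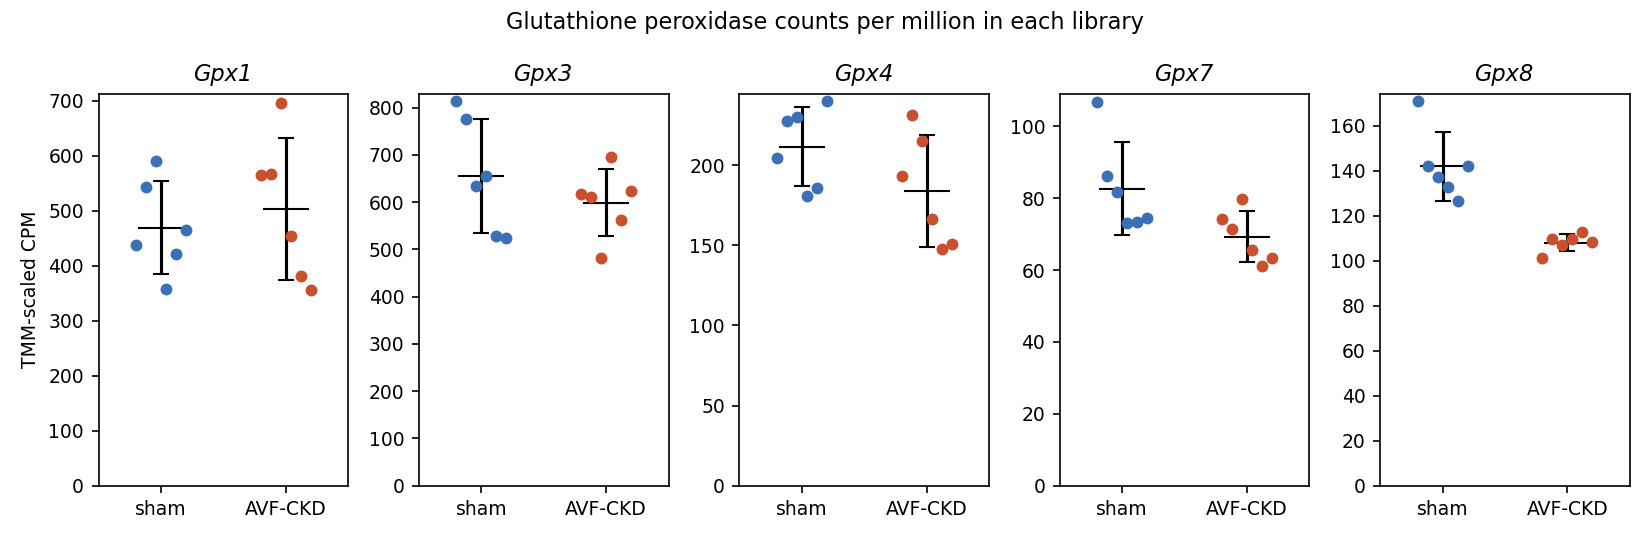
TMM-scaled CPM of the 5 abundant members in each library, with the horizontal line at the group mean and the bar spanning 1 SD on each side (n = 6 per group). Gpx8 separates the groups, at 126 to 171 CPM in sham and 101 to 113 CPM in AVF-CKD, while the groups overlap for Gpx1, Gpx3, Gpx4 and Gpx7.

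Gpx4 (ENSMUSG00000075706, chr10, 80047166 to 80056439), the lipid hydroperoxide reductase, had a lower mean in AVF-CKD with overlapping groups. Its lowest, median and highest values were 181, 216 and 240.1 CPM in sham and 147, 179.6 and 231 CPM in AVF-CKD. AVF-CKD 4, 5 and 6 were below every sham library, and AVF-CKD 2, at 231 CPM, was above all sham libraries but sham 6. The means were 212 ± 24.8 and 184 ± 34.7 CPM (SD, n = 6 each), a log2 fold change of -0.20 ± 0.12 (SE; 95% interval -0.47 to 0.07).

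Gpx1 (ENSMUSG00000063856, chr9, 108338903 to 108340343), the cytosolic and mitochondrial enzyme, had the widest spread of the 5 within AVF-CKD. Its lowest, median and highest values were 358, 452 and 591 CPM in sham and 355, 509 and 696 CPM in AVF-CKD. AVF-CKD 3 was above every sham library and AVF-CKD 6 just below every sham library, so the groups overlapped throughout. The means were 469 ± 84.8 and 503 ± 129.9 CPM (SD, n = 6 each), a log2 fold change of 0.10 ± 0.17 (SE; 95% interval -0.27 to 0.47). Without AVF-CKD 3 it was -0.02.

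Gpx3 (ENSMUSG00000018339, chr11, 54902453 to 54910377), the secreted member, differed between the groups by less than the SD in sham. Its lowest, median and highest values were 524.5, 645 and 813 CPM in sham and 483, 614 and 695 CPM in AVF-CKD. Sham 1 and sham 2 were above every AVF-CKD library and AVF-CKD 3 was below every sham library. The means were 655 ± 121 and 599 ± 71.0 CPM (SD, n = 6 each), a log2 fold change of -0.13 ± 0.13 (SE; 95% interval -0.41 to 0.15). It was -0.06 without sham 1.

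The ratio of Gpx1 to Gpx4 per length was 2.65 ± 0.29 in sham, with a range of 2.31 to 3.07. In AVF-CKD it was 3.25 ± 0.39, with a range of 2.82 to 3.87, and the groups overlapped. The ratio of Gpx1 to Gpx3 was 0.92 ± 0.21 in sham and 1.09 ± 0.40 in AVF-CKD, a difference within either SD. AVF-CKD 3 was the highest library for both ratios.

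The remaining members had counts of at most 47 in any library. Gpx6 (ENSMUSG00000004341, chr13, 21312217 to 21319624) held 96 counts in all, of which 47 were in sham 2 and 38 in sham 3. The other libraries with Gpx6 held 1 to 4 counts each. Gpx2 (ENSMUSG00000042808, chr12, 76792335 to 76795554) held 30 counts, 28 of them in sham 6 and 2 in sham 4. In the 6 AVF-CKD libraries Gpx2 was at 0, which allows at most 3 counts per library. Sham 6 was also the library with the highest summed markers of epithelium and neck glands, 48.6 CPM against at most 15.8 CPM in the other sham libraries and 6.21 to 12.7 CPM in AVF-CKD. Not all genes of that list were highest there. Aqp5, its most abundant tested gene, was at 4.88 CPM in sham 6, 8.51 CPM in sham 1 and 5.25 CPM in sham 2. Muc5b and Bpifa2 averaged only 0.0307 and 0.0442 CPM in sham. The part of the cells behind this sum in the Gpx2 counts was not tested. Gpx5 (ENSMUSG00000004344, chr13, 21286429 to 21292731) held 22 counts spread over 7 libraries, with at most 6 in any. At these depths a count of 3 corresponds to 0.0503 to 0.0775 CPM, and no fold change is given for these members. These floors cover counting error only.

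Some members varied together and others did not. The following correlations (Pearson r of log2 CPM) describe these libraries, which share depth and tissue makeup, and 10 pairs of members were computed. Gpx1 and Gpx4 varied together in either group, with r of 0.81 over the 6 sham libraries and 0.91 over the 6 AVF-CKD libraries. Gpx3, with selenocysteine as in Gpx1 and Gpx4, did not vary with them in this way. Its r with Gpx1 was 0.16 in sham and -0.49 in AVF-CKD, and with Gpx4 0.01 and -0.33. Gpx7 and Gpx8 had an r of 0.92 in sham and of -0.64 in AVF-CKD. The sham value was 0.59 without sham 1. Over all 12 libraries it was 0.75, a value that holds the difference between the groups and was 0.53 without sham 1. Gpx7 varied with Gpx1 and Gpx4 in AVF-CKD, with r of 0.97 and 0.87. In sham these values were 0.24 and 0.17, and without sham 1 they were 0.84 and 0.60. Gpx8 and Gpx1 had an r of 0.11 in sham and -0.49 in AVF-CKD. The differences in r between the groups were not tested.

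**Figure D3:**
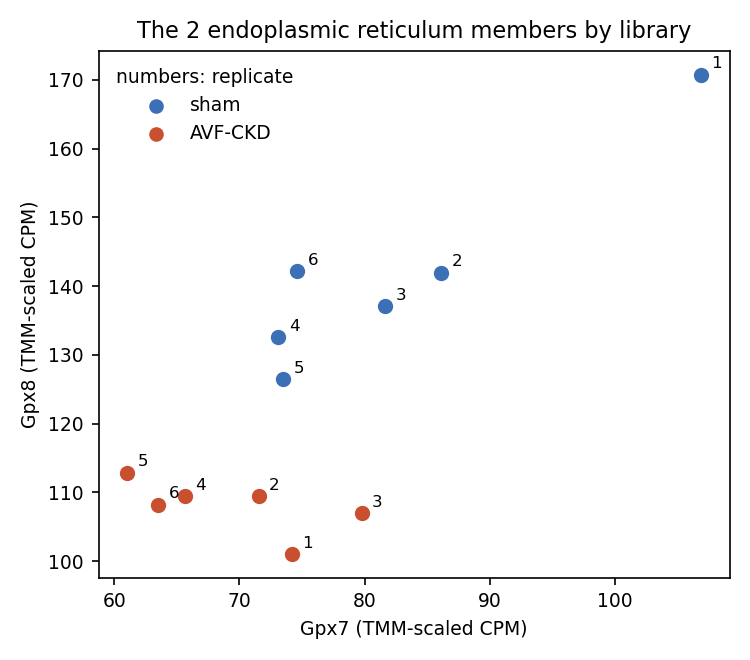
Gpx8 against Gpx7 in TMM-scaled CPM for each library, numbered by replicate, with sham in blue and AVF-CKD in red. Gpx8 separates the groups along the vertical axis, Gpx7 overlaps along the horizontal axis between 73.1 and 79.8 CPM, and sham 1 lies at the top right.

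The genes most like each member over the 12 libraries (Pearson r of log2 CPM, 3 genes per member among the named genes tested) differed from member to member. Gpx4 was most like Ndufa1 (r = 0.98), Ndufb3 (r = 0.97) and Ndufa6 (r = 0.97), which encode subunits of respiratory complex I. Gpx1 was most like Bad (r = 0.97), a BCL2 family protein, the copper chaperone Atox1 (r = 0.96) and Rrp7a (r = 0.96), a ribosome biogenesis factor. Gpx7 was most like Tmed3 (r = 0.95), a cargo receptor of the early secretory pathway, Txndc15 (r = 0.95), a thioredoxin-domain protein, and Cnpy2 (r = 0.94), a protein of the endoplasmic reticulum. Gpx3 was most like Polg2 (r = 0.94), the accessory subunit of the mitochondrial DNA polymerase, followed by Tmem138 (r = 0.86) and Msantd1 (r = 0.83). Gpx8 was most like Pou2f3 (r = 0.92), a transcription factor at only 0.358 CPM for sham and 0.160 CPM for AVF-CKD, Ppap2a (r = 0.92), a lipid phosphatase, and the lysosomal Laptm4b (r = 0.91). Gpx8 separates the groups, and with group means subtracted its r was 0.76 with Pou2f3, 0.89 with Ppap2a and 0.80 with Laptm4b. The highest of very many values is high by selection, and the likenesses of all members are given as a description.

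Markers of other cells moved with some members. Each of the 5 members tested was compared with each marker list, and the pairs given here were picked by their values. Gpx7 and the neutrophil markers, for instance, had an r of -0.94 in sham, 0.84 in AVF-CKD and -0.22 over 12 libraries. Gpx1 was higher in libraries with more macrophage marker RNA, with an r of 0.71 over 12 libraries, 0.52 in sham, 0.88 in AVF-CKD and 0.85 without the 2 libraries farthest from the median of the markers. All 8 macrophage markers, led by Lyz2, were detected and their sum ran from 5899 to 11959 CPM in sham and from 6360 to 11760 CPM in AVF-CKD. Against the 8 fibroblast markers, led by Col3a1, which summed to 38586 to 62151 CPM in sham and 36065 to 63356 CPM in AVF-CKD, Gpx1 had an r of -0.96 in AVF-CKD and -0.34 in sham. Gpx4 had -0.96 and -0.08, and Gpx7 had -0.94 and 0.70. With the macrophage markers Gpx4 and Gpx7 had r of 0.87 and 0.89 in AVF-CKD, and 0.11 and -0.09 in sham. AVF-CKD 4, 5 and 6, the lowest of their group for Gpx1, Gpx4 and Gpx7, were the highest of it for the fibroblast markers.

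Gpx7 was lower in libraries with more erythroid marker RNA, led by Hbb-bs, which summed to 1145 to 5507 CPM in sham and 3186 to 6093 CPM in AVF-CKD. The r was -0.98 in sham but -0.18 in AVF-CKD, and over the 12 libraries it went from -0.81 to -0.30 without the 2 farthest. Gpx8 behaved alike, with -0.86 in sham, 0.21 in AVF-CKD, and over 12 libraries -0.64, which became -0.01 without those 2. Gpx3 had -0.90 and -0.09 in the same groups. Gpx8 also had an r of 0.61 with the fat markers over 12 libraries, 0.26 in sham and 0.60 in AVF-CKD. All 8 fat markers had negative log2 fold changes, with a median of -1.05, and 5 of them an unadjusted p below 0.05, beside 4.08% of all genes tested. DESeq2 called 2 of them lower, Adipoq (adjusted p = 0.0391) and Retn (adjusted p = 0.0232), beside 0.209% of the 18210 genes with a DESeq2 adjusted p. By edgeR 0 were called, as over all genes tested. All 7 endothelial markers and 4 of 7 smooth muscle markers also had negative log2 fold changes. In each of these lists 2 were lower at an unadjusted p below 0.05 by edgeR. All 7 erythroid markers were positive, with 0 at that p, and so were the 3 cardiac muscle markers tested (Tnnt2, Actc1 and Myl4), with 2. The rest of the 6 listed cardiac markers, Myh6, Myl7 and Nppa, had too few counts to be tested. Their group means lay between 0.0282 and 0.122 CPM. Whether the libraries held cardiac muscle was not tested. With fat and skeletal muscle scores (mean log2 CPM of each list) as covariates the log2 fold change of Gpx8 was -0.38 ± 0.09 (SE). The part of the macrophage, fibroblast, erythroid, neutrophil, endothelial, smooth muscle and cardiac muscle markers in these values was not tested.

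**Figure D4:**
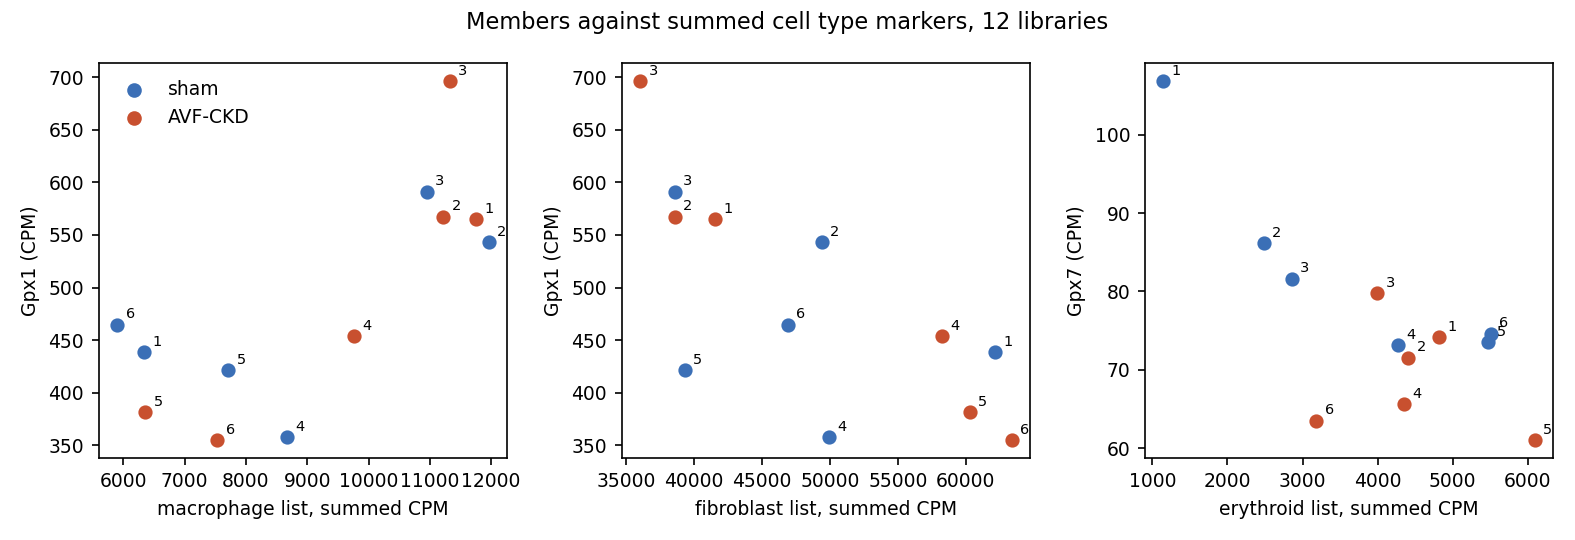
Gpx1 CPM against the summed CPM of the macrophage and fibroblast marker lists, and Gpx7 CPM against that of the erythroid list, for each library numbered by replicate (sham blue, AVF-CKD red). Gpx1 is highest in AVF-CKD 3 at 696 CPM, the library lowest for fibroblast markers, and Gpx7 is highest in sham 1 at 107 CPM, the library lowest for erythroid markers.

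Genes around the family were compared in 7 lists of pathway genes, which cover 106 tested genes. Neither edgeR nor DESeq2 called any of them. At an unadjusted p below 0.05 edgeR counted 4 of the 106 higher (3.77%) and 17 lower (16.0%), beside 5.26% and 4.08% of all genes tested. The median log2 fold change over the 106 genes was -0.05, beside 0.00 over all genes tested.

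The glutathione S-transferases, which conjugate glutathione to electrophiles and in part have peroxidase activity of their own, stood on the lower side. Of 21 tested, 17 had a negative log2 fold change, with a median of -0.33. At an unadjusted p below 0.05, 8 were lower (38.1%), beside 4.08% of all genes tested, and 0 were higher, beside 5.26%. Mgst1, a microsomal transferase and the most abundant of the list, averaged 207 ± 45.8 CPM across sham and 149.8 ± 25.2 CPM across AVF-CKD (SD, n = 6 each). Its log2 fold change was -0.47 ± 0.16 (SE; adjusted p = 0.443 by edgeR). Gstm5 had the lowest p, at 32.4 ± 4.14 and 24.7 ± 3.51 CPM (adjusted p = 0.390 by edgeR). Gstm7 ran from 1.52 to 2.97 CPM in sham and from 0.687 to 1.43 CPM in AVF-CKD, without overlap (adjusted p = 0.390 by edgeR). Gstp1 was at 49.7 ± 8.18 and 50.5 ± 10.6 CPM (adjusted p = 0.974 by edgeR). The Gstm genes and the Gstp pair are close paralogs, so their counts are uncertain as far as reads could fall on more than 1 of them. The fat markers described above also had negative log2 fold changes. With the fat and skeletal muscle scores as covariates, the median log2 fold change of the 21 transferases was -0.22, with 19 negative, and 4 had an unadjusted p below 0.05 in place of 8. Over all genes tested the same covariates took the count at an unadjusted p below 0.05 from 1772 to 1168, and over the 106 pathway genes from 21 to 13.

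Among 18 tested genes of oxidative folding in the endoplasmic reticulum, where Gpx7 and Gpx8 work, 13 had a negative log2 fold change and 5 a positive one, with a median of -0.08. At an unadjusted p below 0.05, 5 were lower (27.8%) and 1 was higher (5.56%), beside 4.08% and 5.26% of all genes tested. With the fat and skeletal muscle scores as covariates, 17 of the 18 were negative, with a median of -0.10. At an unadjusted p below 0.05, 4 were then lower and 1 higher, beside 500 and 668 of all 18965 genes tested. P4hb, the archetypal protein disulphide isomerase, averaged 937 ± 45.7 CPM across sham and 945 ± 72.6 CPM across AVF-CKD (adjusted p = 0.976 by edgeR). Pdia6, another isomerase, was at 411 ± 49.5 and 335 ± 39.6 CPM, a log2 fold change of -0.29 ± 0.10 (adjusted p = 0.448 by edgeR). Ero1a, the oxidase that produces peroxide while recharging the isomerases, was at 42.3 ± 4.61 and 51.3 ± 7.79 CPM, a log2 fold change of 0.28 ± 0.10 (adjusted p = 0.483 by edgeR).

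For glutathione synthesis and recycling, 10 of 15 genes had a positive and 5 a negative log2 fold change, with a median of 0.06. By edgeR 2 were higher and 2 lower (13.3% each) at an unadjusted p below 0.05, beside 5.26% and 4.08% of all genes tested. Gsr, which regenerates reduced glutathione for Gpx1 to Gpx4, ranged from 39.7 to 49.6 CPM in sham and from 41.8 to 85.4 CPM in AVF-CKD. AVF-CKD 5 alone lay within the sham range, the other 5 being above all sham libraries, and the log2 fold change was 0.48 ± 0.15 (adjusted p = 0.407 by edgeR). Chac2, which degrades glutathione, ranged from 6.68 to 8.22 CPM in sham and from 4.56 to 6.46 CPM in AVF-CKD, without overlap (log2 fold change -0.36 ± 0.11, adjusted p = 0.407 by edgeR). Slc3a2, the shared heavy chain of the cystine transporter, was the most abundant, with 93.5 ± 6.30 and 104.9 ± 14.7 CPM (adjusted p = 0.608 by edgeR).

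The machinery that Gpx1 to Gpx4 depend on for selenocysteine had no gene called by edgeR, which called 0 of all 18965 genes tested. The 11 tested genes of selenium delivery and insertion had log2 fold changes with a median of 0.01, 6 positive and 5 negative. At an unadjusted p below 0.05 there were 0, beside 5.26% higher and 4.08% lower over all genes tested. With 11 genes, nothing is read from that count. Selenop, the plasma selenium carrier, averaged 1850 ± 277 CPM across sham and 1792 ± 297 CPM across AVF-CKD (adjusted p = 0.942 by edgeR). Secisbp2, which binds the insertion stem-loop, was at 18.1 ± 1.31 and 19.8 ± 1.90 CPM (adjusted p = 0.636 by edgeR), and Sepsecs, the selenocysteine synthase, at 22.3 ± 0.79 and 21.5 ± 0.80 CPM (adjusted p = 0.795 by edgeR).

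Of 17 other selenoproteins tested, 12 had a negative and 5 a positive log2 fold change, with a median of -0.05. By edgeR 1 was higher and 1 lower (5.88% each) at an unadjusted p below 0.05, beside 5.26% and 4.08% of all genes tested. Selenok, of the endoplasmic reticulum membrane, averaged 92.5 ± 8.13 CPM across sham and 77.8 ± 6.96 CPM across AVF-CKD (log2 fold change -0.25 ± 0.08, adjusted p = 0.407 by edgeR). Dio3, which inactivates thyroid hormone, was at 0.797 ± 0.670 and 1.84 ± 0.562 CPM (adjusted p = 0.494 by edgeR).

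The other enzymes against peroxide and superoxide divided evenly, with 8 of 15 positive, 7 negative and a median of 0.01. At an unadjusted p below 0.05 there were 0, beside 5.26% higher and 4.08% lower over all genes tested. Prdx1, a cytosolic peroxiredoxin, was the most abundant at 658 ± 103 CPM across sham and 682 ± 218 CPM across AVF-CKD (adjusted p = 0.955 by edgeR). Txnrd1, the thioredoxin reductase, was at 102.5 ± 14.8 and 119 ± 23.5 CPM (adjusted p = 0.635 by edgeR), and Sod1, the cytosolic superoxide dismutase, at 163 ± 29.6 and 133 ± 24.5 CPM (adjusted p = 0.556 by edgeR).

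Around lipid peroxidation and ferroptosis, the setting in which Gpx4 acts, 10 of 14 genes had a positive and 4 a negative log2 fold change, with a median of 0.10. By edgeR 1 was higher and 1 lower (7.14% each) at an unadjusted p below 0.05, beside 5.26% and 4.08% of all genes tested. Slc7a11, the cystine importer that feeds glutathione synthesis, averaged 22.2 ± 8.70 CPM across sham and 37.3 ± 15.8 CPM across AVF-CKD (log2 fold change 0.75 ± 0.32, adjusted p = 0.503 by edgeR). Fth1, the ferritin heavy chain, was at 1978 ± 335 and 2516 ± 710.1 CPM (adjusted p = 0.606 by edgeR). Lpcat3, which places polyunsaturated fatty acids in phospholipids, was at 49.4 ± 8.19 and 42.2 ± 4.07 CPM (adjusted p = 0.527 by edgeR).

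**Figure D5:**
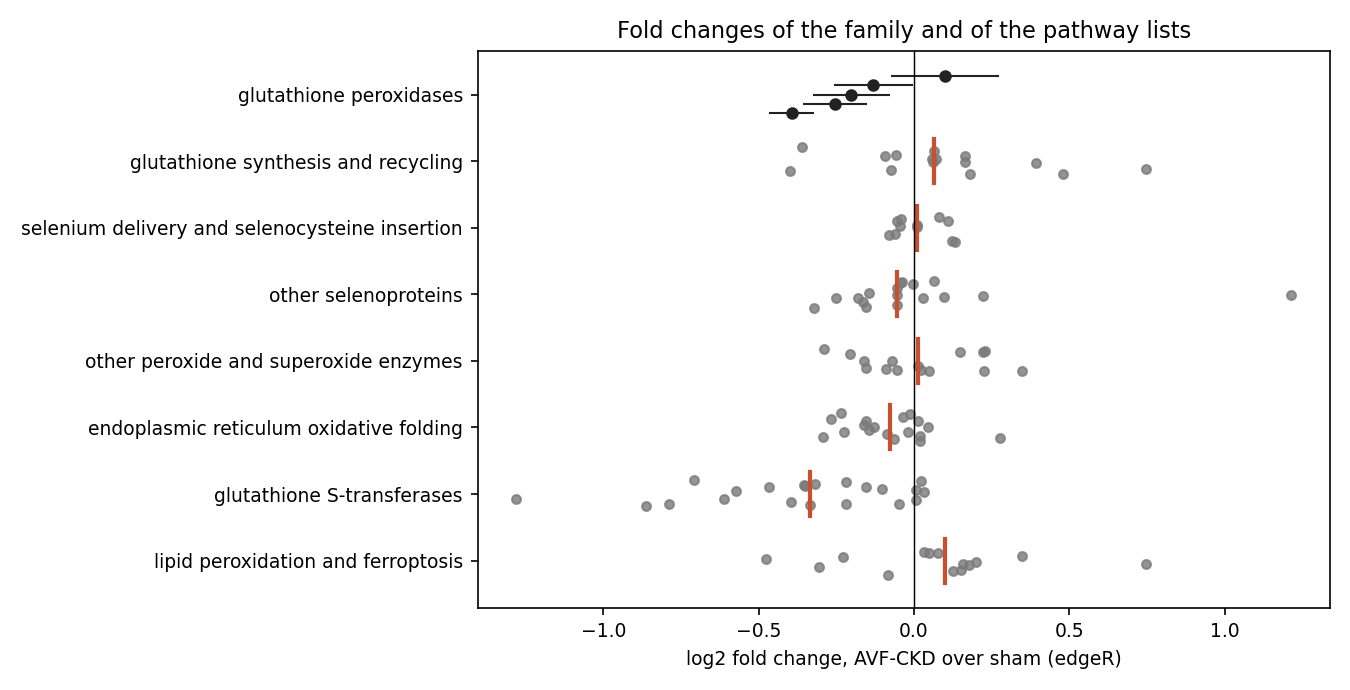
Log2 fold change of AVF-CKD over sham (edgeR) for the 5 glutathione peroxidases tested (black, top to bottom Gpx1, Gpx3, Gpx4, Gpx7 and Gpx8, bars 1 SE) and for each tested gene of the 7 pathway lists (grey, red line at the list's median). The medians lie between -0.33 for the glutathione S-transferases and 0.10 for lipid peroxidation and ferroptosis, and no gene was called after adjustment.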

How the data were processed

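The deposited table gives a read count and an RPKM value per gene and library, with a length per gene. GRCm38, TopHat2 2.1.0, edgeR and featureCounts are named in the submitters' processing notes, without their roles. Which annotation release and strand setting were used is not given in the sources used, and the TruSeq kit, version 2 per the labels' protocols, does not mark strand. The deposited counts were whole numbers and were analysed as they stood. The deposited RPKM values were counts per length and per library total, this total being 1.15 to 1.19 times the summed counts by a computation on the table, and served for levels between genes. Columns of other series numbered 0.

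Counts were filtered with filterByExpr, scaled by TMM and tested over 18965 genes with the quasi-likelihood test of edgeR 4.0.16 in R 4.3.3, group being the single term, with Benjamini-Hochberg adjustment and calls below 0.05. CPM uses TMM-scaled totals, and log2 CPM a prior count of 2. Alternatives were other scalings and filters, DESeq2 1.42.0, voom of limma 3.58.1, a replicate block, marker covariates and leaving out each library. Scripts were tested on simulated data. Each of the 66 pairs of libraries differed beyond sampling noise, with a chi-square of 47.8 to 212 for each degree of freedom. Sequences and annotation came from GENCODE M21, and near copies (at least 85% identity over 100 bases) from blastn 2.17.0.

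All members are reported. Of each list the most abundant gene and the lowest p in each direction were named, Gstm7, Adipoq and Retn were added after their values were seen, and likeness took the 3 highest r. Members and lists were chosen with earlier results of these data known.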

Additional observations from a re-analysis of the deposited data

Results flagged for a closer look

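In groups of 6 libraries, a value was singled out when its gap to the nearest library exceeded Dixon's critical share of the group's range. For normally distributed values chance does this in about 1 in 20 groups. That rate does not hold for counts near 0, as those of Gpx2, Gpx5 and Gpx6. Of 15 group and member combinations checked, 2 had a value singled out. Gpx8 in sham 1 was at 171 CPM, the other sham libraries lying between 126 and 142 CPM. Gpx2 in sham 6 was at 0.581 CPM, from 28 counts, the next library being at 0.0463 CPM.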

How the results depend on the processing

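The log2 fold changes of the 5 members stayed within 1 SD of the values given under all 21 alternatives. Gpx1 ran from -0.02 to 0.18, with the opposite sign in 1 of 21, Gpx3 from -0.19 (without sham 5) to -0.06, Gpx4 from -0.28 to -0.14, Gpx7 from -0.30 to -0.17 and Gpx8 from -0.43 to -0.33. The count of genes called by edgeR was 0, from 0 to 1 when a library was left out, with the 1 without AVF-CKD 3, and 102 by DESeq2, 64 higher and 38 lower. The count of pathway genes called was 0 throughout. With the title number as a replicate block, edgeR called 0 genes, with 2058 at an unadjusted p below 0.05 against 1772 without it. The labels do not say whether the numbers pair the libraries, and correlations cannot settle it. Same-numbered libraries had r of -0.11 to 0.28, 3 of 6 over 0.1, and 1 sham library correlated best with its own number. The r of Gpx7 and Gpx8 over 12 libraries ran from 0.53 to 0.82 when a library was left out, an alternative chosen after seeing the data except for sham 6, and was 0.59 with group means subtracted. Gpx3 was above Gpx1 in 6 libraries on the RPKM scale and with TMM-scaled counts per kilobase. Depth limits Gpx2, Gpx5 and Gpx6, and the counting of copies limits Gpx4.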
